A study of Homo sapiens and Mus musculus with 15 samples.

Results

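The data described here are the transcript levels of 10 integrin subunits: the α subunits ITGA1, ITGA2, ITGA3, ITGA5, ITGA6 and ITGAV and the β subunits ITGB1, ITGB3, ITGB4 and ITGB8. They were chosen by symbol, with earlier results of these data known. All 10 had a row in a human table of 61071 genes and, in title case, in a mouse table of 56832 genes, and all 10 were looked up in scRNA-seq libraries of mouse retinal pigment epithelium (RPE). The human table held 9 libraries of ARPE-19, an established human RPE cell line, in 3 groups of 3: cells with a control vector on plastic, cells with a control vector on a soft 1.5 kPa substrate, and cells overexpressing YAP-HA, a tagged form of the transcriptional coactivator YAP. The YAP-HA cells also grew at 1.5 kPa according to the design text of the series, since their own labels give no stiffness. The mouse table held 4 libraries of eye cups without retina from old C57BL/6J mice, 2 given no TRULI and 2 given TRULI, which blocks LATS, the kinases that hold YAP inactive; the age in months is not given for these mice. The scRNA-seq comprised 1 library of C57BL/6J mice of 3 months (young) and 1 of 24 months (old). The condition label calls both libraries old, but the title and age of the young one give 3 months, and these were followed.

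Integrins are receptors of 1 α and 1 β chain that join the extracellular matrix to the cytoskeleton. The β1 chain pairs with many α chains: with α1 and α2 it binds collagen, with α3 and α6 it binds laminin, and with α5 it binds fibronectin. The αv chain pairs with β1, β3, β5, β6 or β8 and binds RGD-containing ligands such as vitronectin, fibronectin and latent TGF-β, while α6β4 anchors epithelia to laminin at hemidesmosomes. At its basal side the RPE rests on Bruch's membrane, and at its apical side αvβ5 takes part in the uptake of photoreceptor outer segments.

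In the RefSeq annotation of GRCh38.p14 the 10 genes lay on 6 chromosomes. ITGA6 (chr2:172427336-172506459) and ITGAV (chr2:186590056-186680901) were on chromosome 2, and ITGA1 (chr5:52787916-52959209) and ITGA2 (chr5:52989352-53094779) stood next to each other on chromosome 5. ITGB8 was at chr7:20329766-20415754, ITGB1 at chr10:32900318-32958230 and ITGA5 at chr12:54395261-54419266. Chromosome 17 held ITGB3 (chr17:47253827-47313743), ITGA3 (chr17:50056110-50090481) and ITGB4 (chr17:75721459-75757818). RefSeq promoter sequence was at hand for 7 of the 10 genes, with 10 start sites among them.

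The 250 bases before each of those 10 start sites were searched on both strands for the letters GGAATG, the core bound by the TEAD partners of YAP, for TGANTCA, the AP-1 core, and for GGGCGG, the SP1 box. GGAATG occurred before 2 of the 10 member starts, against 11.9% of all 35116 promoters, TGANTCA before none against 6.6%, and GGGCGG before 5 against 42.6%. No match overlapped another. The ITGB8 window, chr7:20330650-20330899, lay before a start site inside the gene span given above. The bases before that span were not searched for ITGB8. The 3 stretches below, each of 30 bases written 5′ to 3′ on the strand of the gene (GRCh38.p14), hold both GGAATG matches and, for ITGB8, whose window held no GGAATG, the SP1 match nearest its start, here as the reverse complement; capitals mark the matched letters. They are shown because ITGA5 and ITGB8 changed most, in opposite directions, when YAP-HA was expressed.
ITGA5, chr12:54419331-54419360, minus strand: tccagggacccaGGAATGcccccccgccag
ITGB1, chr10:32958395-32958424, minus strand: cgcggcgggagaGGAATGcgtttccggagg
ITGB8, chr7:20330839-20330868, plus strand: accacccctctcCCGCCCatcgccggcctc
These matches describe the letters only; no binding was measured here.

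The labels were checked first. YAP1 stood at 115.38 to 125.51 TPM (a level scaled by transcript length and by the total of the library) on plastic, at 55.85 to 77.27 TPM on the soft substrate and at 2208.89 to 2468.81 TPM in the YAP-HA libraries. CCN2, a YAP target, was at 456.47 to 476.09 TPM on plastic, 147.37 to 155.7 TPM on the soft substrate and 170.55 to 197.04 TPM with YAP-HA. CCN1, another YAP target, was at 1138.27 to 1193.27, 816.01 to 842.1 and 941.12 to 993.35 TPM in the same order. ANKRD1, also a YAP target, went the other way, with 140.23 to 167.5 TPM on plastic, 167.72 to 182.57 TPM on the soft substrate and 98.1 to 105.93 TPM with YAP-HA, so the targets did not all follow the level of YAP1. Of the 6 genes that define RPE here, RPE65 and TTR were listed at 0 in all 9 ARPE-19 libraries, TYR was at 0.18 TPM or less, TRPM3 at 0.73 TPM or less, RLBP1 at 0.57 to 4.56 TPM and MITF at 3.2 to 13.93 TPM, so the line lacked defining markers of mature RPE. In the mouse eye cups Rpe65 stood at 1798.42 to 2520.55 TPM and Ttr at 13516.12 to 18382.2 TPM. The depth behind the TPM values is unknown, and nothing states that the replicates came from separate cultures, so their p-values measure the spread between these libraries, which may be technical.

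ARPE-19 cells on plastic expressed chains for laminin, αv and fibronectin receptors at the highest levels among the 10. ITGB1 came first at 862 ± 50.9 TPM (SD, n = 3), followed by ITGA3 at 571 ± 31.2, ITGAV at 145 ± 15.2, ITGA5 at 93.2 ± 9.86, ITGA6 at 56.5 ± 4.64, ITGB4 at 27.9 ± 4.44 and ITGA1 at 21.4 ± 1.26 TPM. ITGB3 (9.99 ± 1.03 TPM) and ITGB8 (8.22 ± 0.878 TPM) followed with overlapping ranges, and ITGA2 was lowest at 3.11 ± 0.0709 TPM. The libraries of all other neighbours in this order did not overlap.

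**Figure D1:**
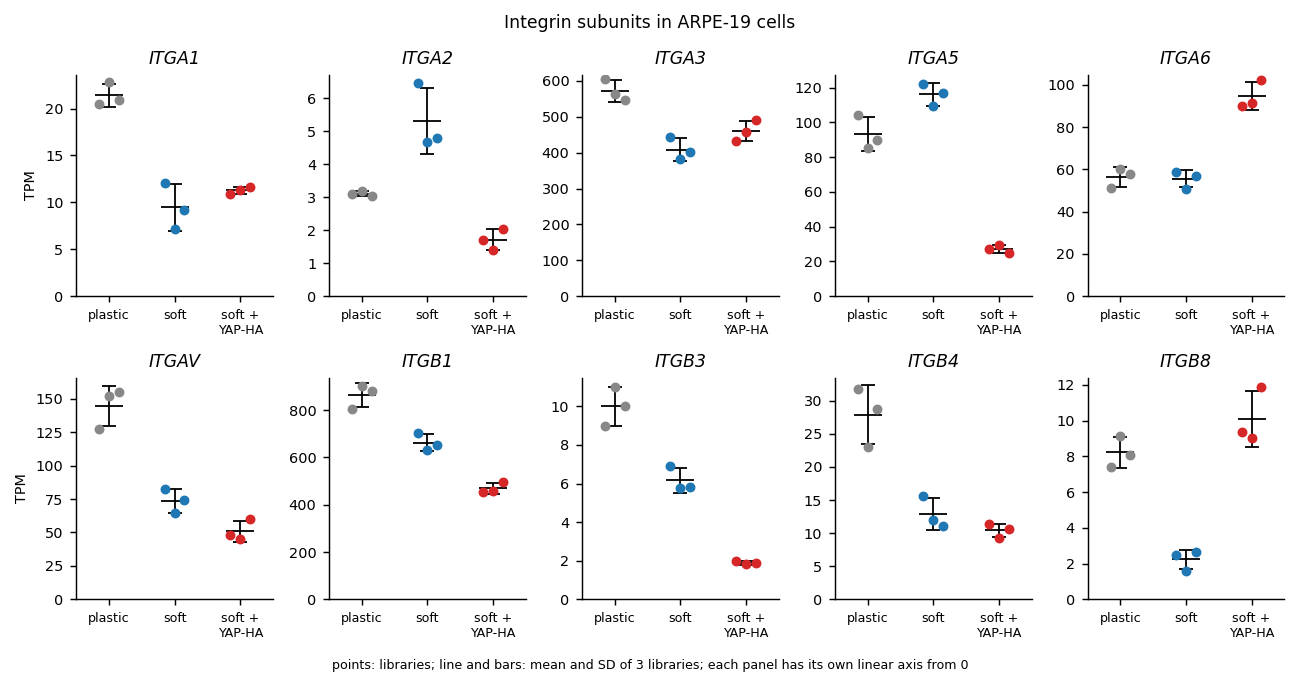
TPM of the 10 integrin subunits in each ARPE-19 library by group (plastic, soft substrate, soft substrate with YAP-HA), with mean and SD of 3 libraries and a separate linear axis from 0 for each gene. ITGB8 is low on the soft substrate alone (1.61 to 2.64 TPM), while ITGA5 is low with YAP-HA alone (24.91 to 29.49 TPM).

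The first comparison asks how the subunits differ between cells on the soft substrate and on plastic. ITGB8, ITGA1, ITGB4, ITGAV, ITGB3, ITGA3 and ITGB1 fell on the soft substrate, in this order of size, whereas ITGA2 and ITGA5 rose and ITGA6 showed no detected difference. The α chains for collagen (ITGA1 and ITGA2), those for laminin (ITGA3 and ITGA6) and the pair of the hemidesmosome receptor (ITGA6 and ITGB4) did not move together. By limma on log2(TPM + 1), with p-values adjusted by the Benjamini-Hochberg method over all 14606 genes tested, 9 of the 10 members passed an adjusted p of 0.05, 2 higher and 7 lower. Over all genes 50.5% passed, 22.6% higher and 27.9% lower. The median difference was -0.55 (log2) over the members and -0.043 over all genes tested. Differences in ARPE-19 and in the eye cups are differences of log2(TPM + 1), so the change of genes with low TPM is understated.

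ITGB8, the β chain of the TGF-β-activating receptor αvβ8, read 7.42, 9.16 and 8.09 TPM on plastic and 2.46, 1.61 and 2.64 TPM on the soft substrate. The groups did not overlap, and ITGB8 fell by 1.52 (SE 0.15, adjusted p = 5.04e-05 by limma). Its αv partner, ITGAV, went from 127.15, 151.61 and 155.0 TPM to 82.21, 64.54 and 74.41 TPM. Every soft library was below every plastic library, with a difference of -0.96 (SE 0.12, adjusted p = 0.000229 by limma). ITGB3, another αv partner among the members, fell from 9.99 ± 1.03 to 6.16 ± 0.664 TPM (log2 difference -0.62, adjusted p = 0.00114 by limma).

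Among the β1 partners, ITGA1, a collagen-binding chain, fell from 20.44, 22.83 and 20.92 TPM to 12.04, 7.13 and 9.2 TPM (log2 difference -1.12, SE 0.14, adjusted p = 0.00022 by limma). ITGA2, which also binds collagen, moved the other way, from 3.1, 3.19 and 3.05 TPM to 6.47, 4.69 and 4.81 TPM (log2 difference 0.61, SE 0.14, adjusted p = 0.00432 by limma). ITGA1 and ITGA2, neighbours on chromosome 5 and both chains of collagen receptors, thus differed in direction, and neither gene had overlapping groups. ITGA3, a laminin-binding chain, fell from 571 ± 31.2 to 408 ± 31.1 TPM (log2 difference -0.48, adjusted p = 0.000482 by limma), and ITGB1 itself from 862 ± 50.9 to 662 ± 36.1 TPM (log2 difference -0.38, adjusted p = 0.000989 by limma).

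ITGA5, the fibronectin receptor chain, read 104.29, 85.34 and 90.12 TPM on plastic and 122.24, 109.27 and 116.95 TPM on the soft substrate. The groups lay close together without overlap (log2 difference 0.32, SE 0.09, adjusted p = 0.0137 by limma), and the adjusted p was 0.0535 without the second plastic library. The partners of the hemidesmosome receptor parted: ITGB4 fell from 31.81, 23.06 and 28.77 to 15.57, 12.04 and 11.11 TPM (log2 difference -1.06, adjusted p = 0.000301 by limma), whereas ITGA6 read 51.27, 60.16 and 58.01 TPM on plastic and 58.7, 50.92 and 56.84 TPM on the soft substrate. The ITGA6 groups overlapped, with a log2 difference of -0.024 (95% interval -0.21 to 0.16).

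The second comparison, YAP-HA against the control vector on the soft substrate, asks what YAP overexpression did to the same genes. ITGB8 and ITGA6 rose, ITGA5, ITGB3, ITGA2, ITGAV and ITGB1 fell, and ITGA1, ITGA3 and ITGB4 did not pass. The 7 members called were 2 higher and 5 lower, beside 48.4% of all genes called, 24.5% higher and 23.9% lower. The median difference was -0.39 over the members and 0.0055 over all genes tested. Both this and the third comparison share libraries with the first, so their values are given side by side and not as independent evidence.

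ITGB8 read 9.39, 9.04 and 11.89 TPM with YAP-HA against 2.46, 1.61 and 2.64 TPM without it. That was a rise of 1.78 (SE 0.15, adjusted p = 8.73e-06 by limma), or 4.52 times the mean TPM of the soft controls. ITGA5 had the largest fall of the 10, to 27.04, 29.49 and 24.91 TPM from 122.24, 109.27 and 116.95 TPM (log2 difference -2.06, SE 0.09, adjusted p = 6.67e-08 by limma). The lowest soft control library held 109.27 TPM of ITGA5 and the highest YAP-HA library 29.49 TPM, so the groups were far apart.

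ITGA6 read 89.87, 91.54 and 102.26 TPM with YAP-HA, above the 58.7 TPM of the highest soft control (log2 difference 0.76, SE 0.08, adjusted p = 5.4e-05 by limma). Its hemidesmosome partner ITGB4 read 11.34, 9.29 and 10.62 TPM, within reach of the 11.11 to 15.57 TPM of the soft controls (log2 difference -0.28, 95% interval -0.59 to 0.044). ITGB3 fell to 1.99, 1.81 and 1.87 TPM (log2 difference -1.31, adjusted p = 7.53e-06 by limma) and ITGA2 to 1.7, 1.41 and 2.04 TPM (log2 difference -1.21, adjusted p = 5.97e-05 by limma). ITGAV fell to 48.13, 44.76 and 59.86 TPM (log2 difference -0.53, adjusted p = 0.0056 by limma), and ITGB1 to 453.27, 457.3 and 495.71 TPM (log2 difference -0.5, adjusted p = 0.00016 by limma). ITGA1 (log2 difference 0.26, adjusted p = 0.164 by limma) and ITGA3 (log2 difference 0.17, adjusted p = 0.0699 by limma) missed the threshold; without the first soft control library both passed, with differences of 0.43 and 0.23.

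The third comparison sets YAP-HA cells on the soft substrate beside control cells on plastic. Of the members 1 was higher (ITGA6) and 8 were lower, while ITGB8 did not pass; 34.4% of all genes passed, 14.2% higher and 20.2% lower. The median difference was -0.87 over the members and -0.047 over all genes tested. ITGB8 stood at 10.1 ± 1.55 TPM with YAP-HA and 8.22 ± 0.878 TPM on plastic (log2 difference 0.26, 95% interval -0.07 to 0.6, adjusted p = 0.202 by limma), so a difference in either direction could not be shown. The largest falls relative to plastic were those of ITGB3 (-1.92), ITGA5 (-1.74), ITGAV (-1.49) and ITGB4 (-1.33). ITGB3, ITGAV and ITGB1 fell from plastic to the soft substrate and fell further with YAP-HA.

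**Figure D2:**
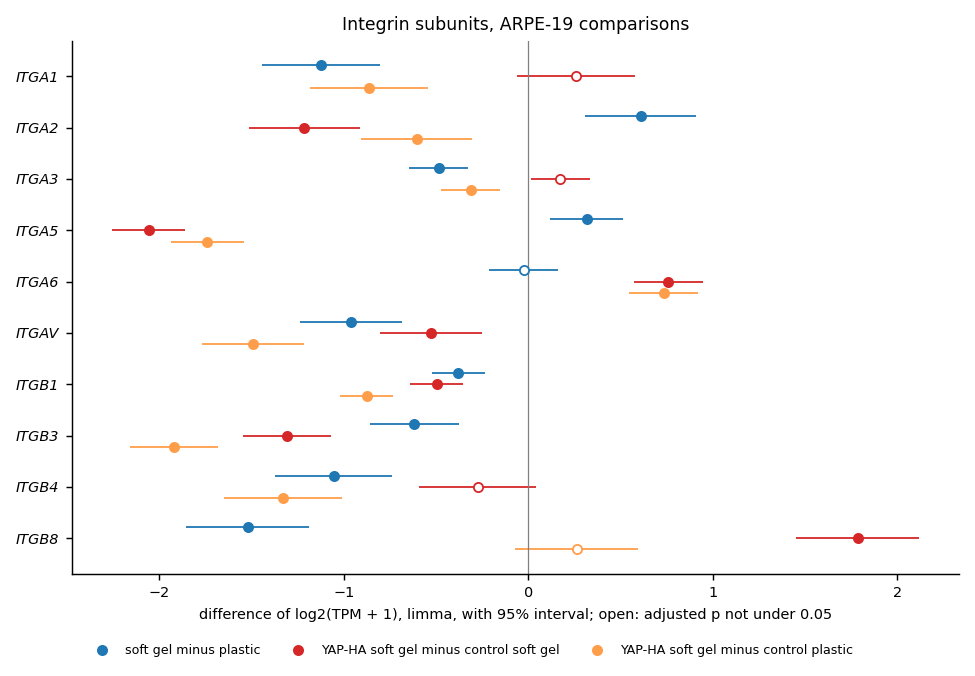
Difference of log2(TPM + 1) with its 95% interval (limma) for each integrin subunit in the 3 ARPE-19 comparisons; filled points passed an adjusted p of 0.05. ITGB8 lies at -1.52 for the soft substrate and at 1.78 for YAP-HA, and ITGA5 at 0.32 and -2.06.

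Relative order among the subunits changed with these shifts. In the YAP-HA libraries ITGB1 (469 ± 23.4 TPM) and ITGA3 (460 ± 29.2 TPM) had overlapping ranges, ITGA6 came next at 94.6 ± 6.72 TPM, and ITGAV (50.9 ± 7.93 TPM) stood above ITGA5 (27.1 ± 2.29 TPM). On the soft substrate alone ITGA5 (116 ± 6.52 TPM) had stood above ITGAV (73.7 ± 8.86 TPM).

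Of 16 further integrin subunits, 4 passed the filter on low TPM in ARPE-19. ITGA4, a chain of fibronectin and VCAM-1 receptors, fell on the soft substrate from 20.6 ± 1.93 to 8.64 ± 1.41 TPM (log2 difference -1.17, adjusted p = 0.000158 by limma) and was at 17.2 ± 3.06 TPM with YAP-HA (0.91 against the soft controls, adjusted p = 0.000503 by limma). The laminin-binding chain ITGA7 showed smaller differences of -0.34 and 0.44 in the same comparisons, both called. ITGAE, known from intraepithelial lymphocytes, differed by 0.52 and -0.3, both called. ITGB5, the β chain that RPE pairs with αv for outer segment uptake, was at 285 ± 28.1 TPM on plastic and 303 ± 42.6 TPM on the soft substrate and was not called there (log2 difference 0.084, 95% interval -0.16 to 0.33), but was lower with YAP-HA at 216 ± 21.2 TPM (-0.48, adjusted p = 0.00495 by limma).

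Genes listed here as ligands, of matrix proteins and of TGF-β, moved in both directions on the soft substrate. Binding of their products to these receptors was not measured. Of 23 tested, 4 rose and 11 fell, beside 22.6% and 27.9% of all genes. THBS1 (thrombospondin-1) fell by 1.59, TGFB2 by 1.56, COL4A4 by 1.46, while LAMB3, a chain of laminin-332, rose by 1.54 from 12.7 ± 0.934 to 39.1 ± 6.16 TPM. With YAP-HA on the soft substrate 4 rose and 14 fell, beside 24.5% and 23.9% of all genes. COL1A1 (collagen I) fell by 2.57, LAMB3 by 2.53 and FN1 (fibronectin) by 2.11. FN1 stood at 907 ± 40.5 TPM in the soft controls and 210 ± 6.27 TPM with YAP-HA, so transcripts of fibronectin and of its receptor chain ITGA5 were both lower. Against plastic 21 of the 23 ligands were lower with YAP-HA and none was called higher by limma, although 22 of them were at an unadjusted p under 0.05 in either direction; COL1A1 fell by 3.99, FN1 by 2.03, FBN1 by 1.61 and THBS1 by 1.47. Over all genes 14.2% were higher and 20.2% lower in that comparison.

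Transcripts of integrin-linked adhesion proteins, a list of adaptors, kinases, actin linkers and membrane partners, mostly fell with the soft substrate. Of 33 tested, 3 rose and 20 fell, beside 22.6% and 27.9% of all genes. The actin crosslinkers ACTN1 (584 ± 56.5 to 293 ± 55.1 TPM) and ACTN4 fell by 1.00 and 0.86, the tensin TNS2 by 0.94 and LIMS2 by 0.82. YAP-HA on the soft substrate gave 6 higher and 13 lower, beside 24.5% and 23.9% of all genes. TNS1 fell by 0.84, the kinase SRC by 0.60 and the tetraspanin CD151 by 0.48, and the talin TLN2 rose by 0.60. Against plastic the counts were 1 higher and 25 lower, beside 14.2% and 20.2% of all genes. The falls were led by TNS1 (-1.57), TNS2 (-1.23), LIMS2 (-0.91) and TNS3 (-0.91). All of these differences are log2 values from limma at an adjusted p under 0.05.

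Partners of the hemidesmosome, 7 genes tested, gave 4 higher and 1 lower on the soft substrate, beside 22.6% and 27.9% of all genes. LAMB3 (1.54) and the transmembrane collagen COL17A1 (0.93) rose and the linker DST fell by 0.50, while the receptor chain ITGB4 fell. With YAP-HA on the soft substrate 5 fell and none was called higher by limma, with 5 at an unadjusted p under 0.05 in either direction; LAMB3 fell by 2.53, COL17A1 by 1.19 and LAMA3 by 0.87, whereas the laminin-binding chain ITGA6 rose. Over all genes 24.5% were higher and 23.9% lower in that comparison. Against plastic 4 fell, beside 20.2% of all genes, among them LAMB3 by 0.99, LAMA3 by 0.59 and CD151 by 0.25.

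The eye cup libraries ask whether these genes differed between old mice given TRULI and old mice without it. No member passed limma's adjusted threshold: 0 of 9 tested, with 2 at an unadjusted p under 0.05 and Itga2 below the filter at 0.24 to 1.1 TPM. Over all 15132 genes only 8 passed (0.0529%). In simulated data of this size with 2 libraries a group, a change of 2 on the log2 scale was recovered for 28% of genes, so the count says little about smaller differences. A bulk eye cup also cannot tell fewer cells of a type from less RNA per cell.

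Itgb4 differed most, at 9.65 and 15.85 TPM in controls and 3.63 and 4.88 TPM with TRULI; the groups did not overlap (log2 difference -1.36, 95% interval -2.16 to -0.56, adjusted p = 0.261 by limma). Itgav read 74.8 and 80.32 TPM in controls and 104.41 and 97.04 TPM with TRULI (log2 difference 0.37, 95% interval 0.06 to 0.69, adjusted p = 0.364 by limma). Its partner Itgb8, second in level only to Itgb1 in control eye cups, read 199.58 and 243.27 TPM against 287.91 and 263.62 TPM (log2 difference 0.32, 95% interval -0.02 to 0.66, adjusted p = 0.444 by limma). Itga5 read 11.66 and 15.14 TPM against 8.54 and 10.7 TPM (log2 difference -0.44, adjusted p = 0.551 by limma). The libraries of Itgav, Itgb8 and Itga5 did not overlap between groups either, whereas those of Itga1, Itga3, Itga6, Itgb1 and Itgb3 did, with log2 differences between -0.38 and 0.11. Lack of overlap does not single out the members. It was also seen for 4 of 14 other integrin subunits, 19 of 28 ligands, 16 of 32 adhesion proteins and 1 of 3 hemidesmosome partners tested. Its share over all genes was not counted. With 2 libraries a group, lack of overlap also arises without any difference, so none is read from it.

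Markers of other cells moved beside these values. The summed level of the 6 macrophage markers was 1777.31 and 1793.92 TPM in controls and 906.07 and 1123.86 TPM with TRULI, that of the 6 RPE markers 19813.14 and 19606.63 against 23832.08 and 23038.66 TPM, and that of the 6 pericyte or smooth muscle markers 308.05 and 363.82 against 543.47 and 836.92 TPM. Ttr held the largest part of the RPE sum, at 14205.34 and 13516.12 TPM in controls and 17594.13 and 18382.2 TPM with TRULI. Mitf and Tyr were also higher with TRULI. The libraries of Rpe65, Rlbp1 and Trpm3 overlapped between groups, with lower means with TRULI, so the RPE markers did not rise together. The 5 Schwann cell markers, genes of the cells with the highest Itgb4 level in scRNA-seq, summed to 235.04 and 208.58 TPM in controls and 242.76 and 249.61 TPM with TRULI. The part of these cells in the integrin values was not tested. The leukocyte chain Itgb2 was at 161.24 and 157.49 TPM in controls and 116.76 and 96.02 TPM with TRULI (log2 difference -0.59, adjusted p = 0.261 by limma), and Itgb7 had a difference of -0.96 (adjusted p = 0.296 by limma). Of the 14 other integrin subunits, 28 ligands, 32 adhesion proteins and 3 hemidesmosome partners tested, none passed limma's adjusted threshold, with 2, 11, 5 and 0 at an unadjusted p under 0.05.

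**Figure D3:**
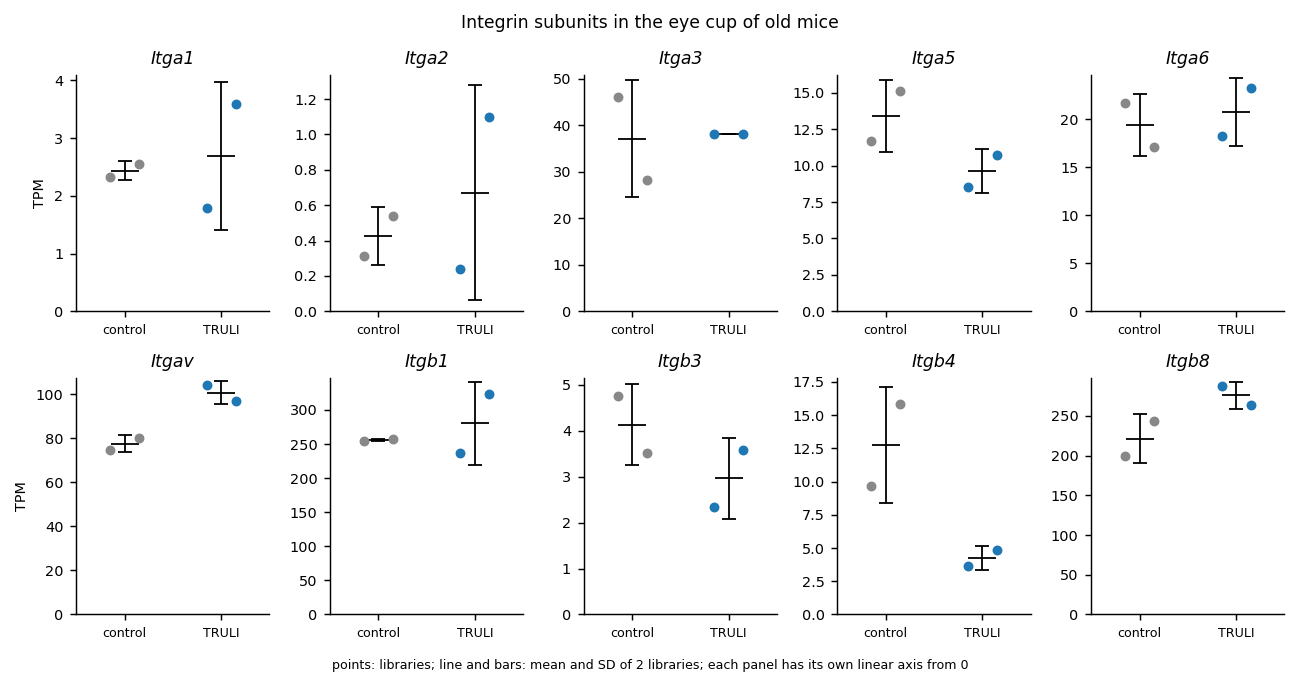
TPM of the 10 integrin subunits in each eye cup library of old mice without (control) and with TRULI, with mean and SD of 2 libraries and a separate linear axis from 0 for each gene. Itgb4 lies lower and Itgav and Itgb8 lie higher in both TRULI libraries, and none of these differences passed the adjusted threshold.

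In the scRNA-seq, RPE cells were those with at least 4% of their UMIs (unique molecular identifiers, 1 per captured transcript) in Mitf, Rlbp1, Rpe65, Trpm3, Ttr and Tyr. That gave 7305 of 30865 cells kept, 1886 of 15667 in the young and 5419 of 15198 in the old library. Near the limit 1548 cells held 3 to 4% and 1372 held 4 to 5%. The limit was applied whatever the cluster, so 305 young and 682 old RPE cells lay outside the clusters scored as RPE. Among them were 145 cells of the macrophage-like cluster and 40, 10 and 76 cells of the T cell-like clusters 9, 17 and 21. Median depth was 10783 UMIs per RPE cell in the young and 3887 in the old library, and 381 cell barcodes occurred in both libraries. Other classes were clusters named from markers, the largest being fibroblast-like with 8645 young and 5394 old cells, although both libraries are labelled as RPE. With 1 library per age there is no replicate check. A level is the summed UMI count of a gene in a class divided by all UMIs of that class, as CPM, and its exact interval covers counting error alone.

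RPE cells stood apart through Itgb8 in both libraries and through Itgav in the young library. Itgb8 was at 1566 CPM in young and 1610 CPM in old RPE cells, while in 9 other classes it ranged from 116 to 292 CPM in the young library. Itgav was at 305 CPM in young and 268 CPM in old RPE cells, against 51.6 to 131 CPM in the other classes of the young library. Both chains of the αvβ8 receptor thus had their highest level in RPE cells in the young library, where Itgb8 was seen in 88.8% of the cells. Itgb1, the common β chain, ran the other way, with 55.7 CPM in young RPE cells and 221 CPM in fibroblast-like, 368 CPM in endothelial-like and 581 CPM in pericyte or smooth muscle-like cells.

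Itgb8 outside the RPE was set beside B cell-like cells, taken here as cells that should lack it. These held 281 CPM in the young and 321 CPM in the old library, with a UMI in 43.8% and 70.7% of cells at median depths of 2759 and 2226 UMIs. Per 100 UMIs of the 6 RPE markers, Itgb8 had 1.83 UMIs in young and 1.95 in old RPE cells. In the old library the same ratio was 3.75 in fibroblast-like, 3.76 in endothelial-like, 3.40 in macrophage-like, 3.90 in T cell-like and 3.74 in B cell-like cells. At the ratio of RPE cells, the RPE-marker UMIs of fibroblast-like cells would come with 60.8 CPM of Itgb8 in the young and 134 CPM in the old library, and 144 and 258 CPM were seen. Fibroblast-like, pericyte or smooth muscle-like (161 and 321 CPM) and macrophage-like cells (205 and 283 CPM) did not exceed the B cell-like level beyond counting error in either library, so no expression of Itgb8 is read from these levels, and their source was not tested. In the old library T cell-like (404 CPM, 95% counting interval 385 to 423) and Schwann cell-like cells (524 CPM, 387 to 695, from 48 UMIs) had the highest levels outside the RPE, beside an interval of 261 to 389 CPM in B cell-like cells. In the young library the 292 CPM of Schwann cell-like cells lay inside the B cell-like interval of 210 to 368 CPM. Itgav gave 75.6 and 81.7 CPM in B cell-like cells, beside 74.0 and 95.6 CPM in fibroblast-like cells.

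Other chains marked other classes. Itgb4 was highest in Schwann cell-like cells, at 234 CPM in the young and 262 CPM in the old library, compared with 0.651 and 0.75 CPM in RPE cells. Its partner Itga6 was at 147 and 186 CPM in Schwann cell-like, 125 and 94.3 CPM in endothelial-like, and 13.4 and 10.96 CPM in RPE cells. Itga1 was at 292 and 131 CPM in Schwann cell-like and 102 and 123 CPM in pericyte or smooth muscle-like cells, compared with 2.99 and 3.59 CPM in RPE cells. Itga5 was at 65.2 and 55.8 CPM in endothelial-like cells and 2.07 and 3.84 CPM in RPE cells. Itga3 reached 54.4 and 42.4 CPM in endothelial-like cells and 25.9 and 23.7 CPM in RPE cells, its level in fibroblast-like cells being 4.40 and 4.24 CPM. Itgb3 did not exceed 3.56 CPM and Itga2 0.159 CPM in RPE cells, the latter from 1 young and 7 old UMIs. In pericyte or smooth muscle-like cells Itga2 had no UMI, which allows up to 1.03 CPM in the young and 1.77 CPM in the old library.

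**Figure D4:**
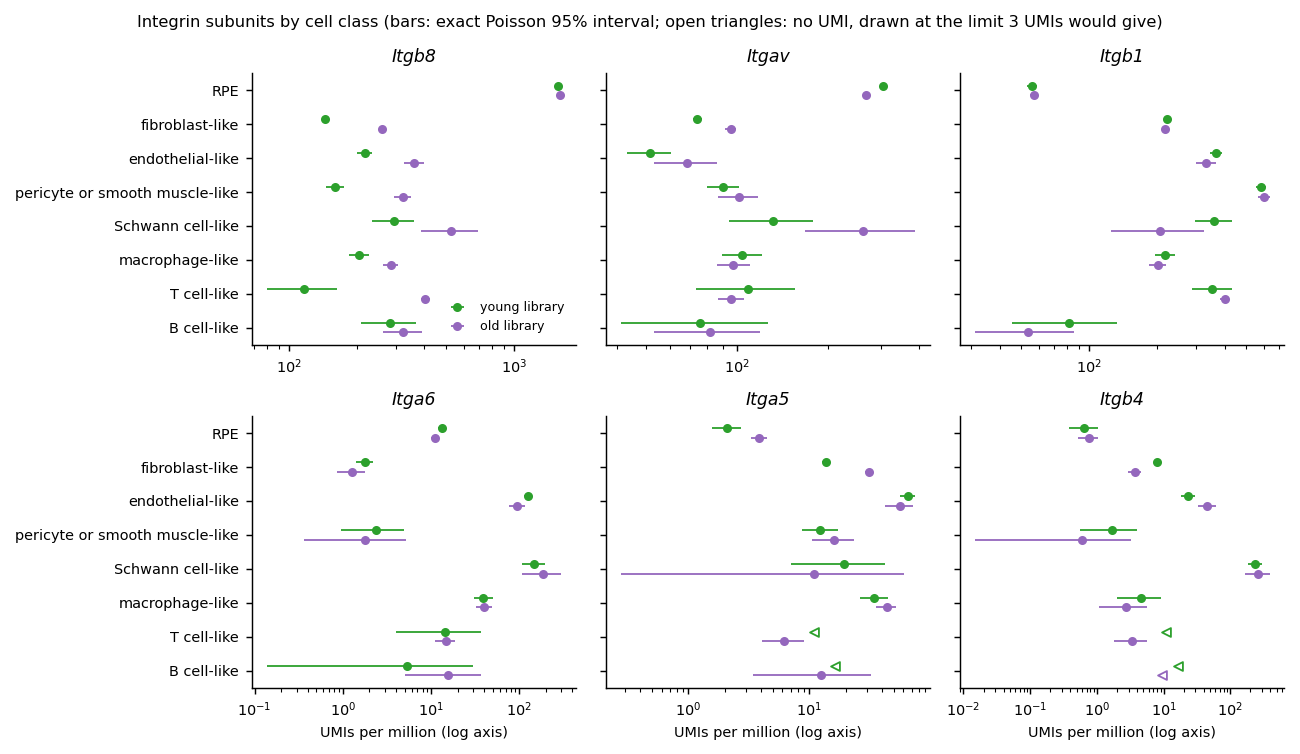
CPM (log axis) of 6 integrin subunits in RPE cells and 7 other cell classes of the young and old library, with exact Poisson 95% intervals for counting error; open triangles stand for no UMI, at the level 3 UMIs would give. Itgb8 is at 1566 and 1610 CPM in RPE cells, above every other class shown, and Itgb4 is at 234 and 262 CPM in Schwann cell-like cells.

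Between the young and the old library, most members differed little in RPE cells. Among the 9 members with at least 20 UMIs, 1 passed a log2 ratio of 0.5 in size (Itga5), beside 16.1% of 14759 genes. The median log2 ratio of old over young was 0.03 over the members and -0.043 over all genes. The chains with the most UMIs had small ratios: Itgb8 of 0.04 (95% counting interval 0.022 to 0.058), Itgb1 of 0.029 (-0.065 to 0.12) and Itgav of -0.19 (-0.23 to -0.15). Itga6 had a ratio of -0.29 (-0.49 to -0.084), Itga3 of -0.13 (-0.27 to 0.012) and Itgb3 of -0.43 (-0.84 to -0.025). Itgb3 passed the fold downwards in other selections of RPE cells, with -0.92 at a limit of 8% (49 and 37 UMIs) and -0.57 without cells above the Scrublet doublet threshold. Itga1 (0.27) and Itgb4 (0.20) had intervals that spanned 0.

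Itga5 was at 2.07 CPM (54 UMIs) in young and 3.84 CPM (169 UMIs) in old RPE cells, a log2 ratio of 0.89 (95% counting interval 0.44 to 1.36). Markers of other cells differed beside it: the summed macrophage markers were at 156 and 229 CPM, and the leukocyte chain Itgb2 at 1.30 and 6.07 CPM in the same cells. Removing RPE cells with a UMI of C1qa, C1qb, C1qc, Lyz2 or Tyrobp left 861 young and 743 old cells. This list of macrophage genes differs from the marker list. The ratio of Itga5 was then 0.27 (-0.64 to 1.16) from 27 and 20 UMIs, an interval that also holds the 0.89 of all RPE cells. Inside the clusters scored as RPE it was 0.88 (0.40 to 1.38) from 48 and 142 UMIs. Without cells above the Scrublet threshold it was 0.76 (0.26 to 1.28). Of 14 other integrin subunits with enough UMIs, 6 passed the fold, beside 16.1% of all genes, and all 6 were higher in the old library: Itgal (3.17), Itgax (2.76), Itgb2 (2.22), Itgam (1.55), Itgb7 (1.41) and Itga4 (0.68), chains known from leukocytes. The RPE cells include cells of the macrophage-like and T cell-like clusters, as given above. The part of those cells in the ratios of these 6 chains was not tested.

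Deep and shallow RPE cells gave different ratios. Within the deepest RPE cluster (cluster 3, 891 young and 1989 old cells) the ratio was 0.043 for Itgb8, -0.21 for Itgav, -0.11 for Itgb1 and 0.61 for Itga5. Within the shallow cluster 2 (468 young and 2344 old cells), it was 0.48 for Itgb8, 0.71 for Itgav and 0.50 for Itgb1. The direction of Itgav therefore differed between deep and shallow RPE cells, and no test of that difference was possible.

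Ligand and adhesion genes of the RPE cells were also mostly within the fold. Of 29 matrix ligands 4 passed it upwards and 1 downwards, beside 16.1% of all genes in either direction. Fn1 (fibronectin) had a log2 ratio of 3.95, from 15 UMIs in young to 390 in old RPE cells, Tgfb1 of 0.90, Lamb3 of 0.77 from 8 and 23 UMIs, and Npnt (nephronectin, an α8β1 ligand) of -1.32. Of 32 adhesion proteins Fermt3, the kindlin of blood cells, was higher at 1.57 and Cav1 lower at -1.50. Of 5 hemidesmosome partners Col17a1 (6 and 20 UMIs) and Lamb3 passed the fold upwards at these low counts. These RPE cells include the cells of the macrophage-like and T cell-like clusters given above. Their part in the ratios of Fn1, Fermt3 and the other genes of these lists was not tested.

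In fibroblast-like cells 5 of 10 members passed the fold, beside 24.0% of 14970 genes. Itga5 was at 13.7 CPM in the young and 31.0 CPM in the old library (log2 ratio 1.18, 95% counting interval 1.03 to 1.33) and Itgb8 at 144 and 258 CPM (0.84), while Itgb4 (-1.09), Itga2 (-0.80) and Itga1 (-0.55) had ratios below 0. Beside Itgb8, the summed RPE markers in these cells were at 3320 CPM in the young and 6887 CPM in the old library. The 2 libraries filled different clusters of this class, the young one mainly clusters 0 and 4 and the old one mainly cluster 1, which Ccl11, Serpina3n and Il1rn led. Within cluster 1 the Itga5 ratio was 1.08 (27 young and 635 old UMIs), within cluster 0 it was 0.54 and within cluster 4 it was 0.19. The Itgb8 ratio of 0.84 was not reached within cluster 0 (0.27) or cluster 1 (0.038, 95% counting interval -0.099 to 0.18), where it stayed under the fold, but was 0.91 within cluster 4. Itgb4 was largely in cluster 4, at 21.8 CPM in young and 22.3 CPM in old cells, a cluster of 2308 young and 451 old cells.

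In endothelial-like cells, 776 young and 326 old, 3 of 9 members passed the fold, beside 27.0% of 10647 genes, and the members that passed depended on the selection of cells. Itgb4 was at 23.3 and 45.2 CPM (log2 ratio 0.96, 95% counting interval 0.39 to 1.52), Itgb8 at 217 and 360 CPM (0.73) and Itga1 at 41.9 and 64.5 CPM (0.62, 0.17 to 1.07). The RPE markers summed to 5191 and 9574 CPM in the same cells; their part in the Itgb8 values here and in fibroblast-like cells was not tested. Itga6, the main α partner of β4, was at 125 and 94.3 CPM (-0.40, -0.74 to -0.07), and Itga5 at 65.2 and 55.8 CPM (-0.22, -0.68 to 0.21). Without cells above the Scrublet threshold Itga1 no longer passed (0.41, -0.048 to 0.86), while Itga6 passed downwards (-0.58, -0.92 to -0.25) and Itgb3 upwards from 11 and 10 UMIs (1.01). After thinning each cell to 1000 UMIs Itga5 passed downwards from 43 and 11 UMIs (-0.87, -1.97 to 0.11).

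**Figure D5:**
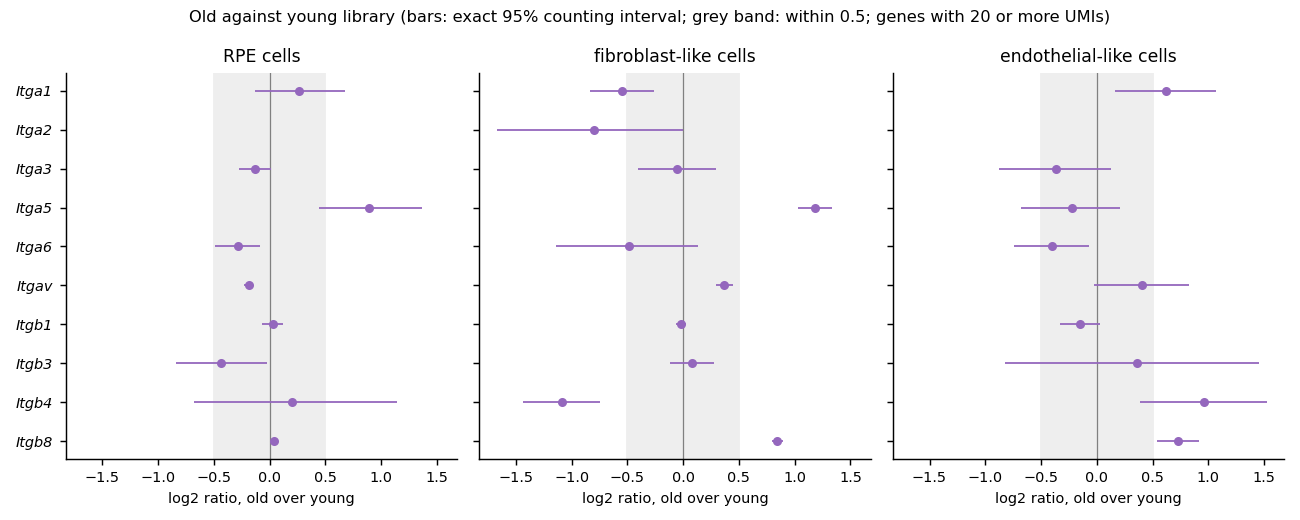
Log2 ratio of old over young library for each integrin subunit with at least 20 UMIs in RPE, fibroblast-like and endothelial-like cells, with exact 95% counting intervals and a grey band within 0.5. Among the RPE cells as selected here, Itga5 (0.89) is the 1 member outside the band, with Itgb3 (-0.43) near its edge.

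Side by side, ITGB8 was among the lowest of the subunits in ARPE-19 cells on plastic (8.22 ± 0.878 TPM), whereas Itgb8 stood at 221 ± 30.9 TPM (SD, n = 2) in control eye cups and at 1566 and 1610 CPM in young and old RPE cells. The tables were normalized separately and differ in species, so no test was made between them.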

How the data were processed

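Total RNA of ARPE-19 cells and of mouse eye cups was sequenced after poly-A selection, and RPE preparations were sequenced with a 10x 5′ kit. The authors deposited TPM per gene for the bulk libraries and filtered UMI counts for the single cells. The submitters' processing notes name Cell Ranger 6.0.1, STAR 2.7.3a and 2.7.10b and RSEM, and the builds mm10, GRCh38 and GRCm39, without saying for the bulk tables which was used where. The paper describes the single cells alone (mm10).

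The deposited TPM were tested as log2(TPM + 1) with limma 3.58.1 (trend, R 4.3.3), all 9 ARPE-19 libraries in 1 fit and the 4 mouse libraries in another, over genes with at least 1 TPM in 3 (ARPE-19) or 2 (mouse) libraries, with Benjamini-Hochberg adjustment and a threshold of 0.05. On simulated data limma recovered 93% of log2 changes of 1 in soft gel against plastic over 14257 genes, and 1% in the mouse over 14692.

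Barcodes under 200 genes, over 10% of UMIs from mitochondria or with any hemoglobin UMI were removed, which left 30865 cells. These were clustered in Seurat 5.3.0 (2000 features, 25 components, resolution 0.4) and named from fixed markers by limits set after the clusters were seen. A cluster scored as dendritic was left unnamed because Krt15 and Krt5 led it. The macrophage-like cluster was led by S100a9 as well as C1qa. Melanocyte-like cells of the old library (5 cells) are not reported. Scrublet's own threshold marked 0 young cells and so did not work there; doublets were kept, and an alternative removed the 567 young and 609 old cells above 0.2859. CPM from the deposited counts carry exact Poisson intervals, ratios exact conditional ones. Kept libraries held 89817876 (young) and 82897938 (old) UMIs.

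The subunits, gene lists and tests were chosen with earlier results of these data known. Named were all 10 subunits, further subunits above the filter, and from each list the 4 largest changes past the threshold, of which 1 gene is not reported here. Alternatives tried were another pseudocount, no filter, quantile normalization, a replicate block, only the groups compared, each library left out, other RPE limits, thinning, and removal of doublets or of cells with macrophage genes.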

Additional observations from a re-analysis of the deposited data

How the results depend on the processing

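The ARPE-19 and mouse counts of members called stayed within 1.5 times the main count under every alternative run (42 and 8 fits). Leaving out each library in turn gave 8 to 9 members for soft gel against plastic, 7 to 9 for YAP-HA against soft gel, 9 for YAP-HA against plastic and 0 in the mouse. Over all genes the mouse calls ranged from 1 to 13 without 1 library and were 0 with a pseudocount of 0.1, without the filter or with the block. Replicate numbers are shared by the groups, but same-numbered ARPE-19 libraries did not deviate together (r from -0.12 to 0.09, mouse 0.06), and 0 of 9 libraries correlated best with its own number in both other groups. With the replicate block 9, 7, 9 and 0 members were called, as without it. Direction turned for 5 members when 1 library was left out, and none of these was called: ITGA6 on the soft gel ranged from -0.091 to 0.035 (above 0 without the second plastic or the second soft library), and with TRULI Itga1 ranged from -0.30 to 0.42, Itga6 from -0.075 to 0.26 and Itgb1 from -0.11 to 0.33, each lowest without the second TRULI library (Itga6 also below 0, at -0.07, without the second control), and Itga3 from -0.26, without the second control, to 0.42. In RPE cells the count past the fold, 1, became 2 with a limit of 8%, without cells holding C1qa, C1qb, C1qc, Lyz2 or Tyrobp, in the deep cluster or inside the clusters scored as RPE, 3 without doublets, and 4 in the shallow cluster or after thinning to 1000 UMIs. Itgb3, at -0.43, passed the fold in 6 of these selections (8% limit -0.92, thinned -0.84, deep cluster -0.68, RPE-scored clusters -0.58, no doublets -0.57, no macrophage genes -0.51). The cluster settings were added after seeing the data. The fibroblast-like count of 5 became 1 in clusters 4 and 13. There Itgb4 turned to 0.58 in cluster 0 and 0.037 in cluster 4, and Itga2 to 0.46 in cluster 4. The causes of these shifts between settings were not tested. The bulk depth is unknown, and in single cells Itga2, Itgb3 and Itgb4 of the RPE rest on few UMIs.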
